A study of Mus musculus with 8 samples.

Results

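The 9 genes described here, *Cd79a*, *Cd79b*, *Ms4a1*, *Pou2af1*, *Ighm*, *Pax5*, *Ebf1*, *Cd22* and *Blnk*, are markers of B lymphocytes, read on arrays of T cells that were sorted as CD3+CD8+CD44+CD62L-. They were taken by gene symbol in the array's annotation, and all 9 were found among 18193 genes, on 26 probe sets that name one of them alone. The study asked how MC38 tumors, a mouse colon carcinoma line grown under the skin, and whole-body irradiation (IR) change such T cells. RNA of female C57BL/6 mice aged 6 to 8 weeks was measured on 8 Affymetrix arrays, chips on which several short probes (a probe set) report a transcript, in 4 groups of 2: tumor T cells 5 h after 5 Gy IR (tumor IR), tumor T cells of mice without IR (tumor no IR), lymph node T cells 5 h after 5 Gy (LN IR) and lymph node T cells without IR (LN no IR). All mice carried MC38 tumors, and the cells of 4 mice were pooled for each array, so an array is a pool and not an animal. Tumors were digested with liberase TM and DNase I and passed through Percoll, whereas LN were disrupted mechanically, so tissue and dissociation cannot be told apart. Both suspensions were enriched for CD8+ cells with magnetic beads before the sort. The design describes 2 independent experiments, but the sample labels do not say which array came from which, and p-values measure only the spread between these arrays.

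B cells recognise antigen with a surface immunoglobulin, whose heavy chain on unswitched cells is IgM, the product of *Ighm*. The immunoglobulin signals through the CD79A and CD79B chains and the adaptor BLNK, and CD22 dampens that signal. PAX5 and EBF1 set and hold B cell identity, POU2AF1 is a coactivator that joins octamer-binding factors at immunoglobulin promoters, and MS4A1 is the membrane protein CD20. LN hold many B cells in their follicles. In bulk RNA of a sort, fewer cells of a type and less RNA per cell cannot be told apart.

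Promoters are shown for the 3 members whose window held a motif searched for (*Cd79a*, *Cd22*, *Blnk*) and for *Pou2af1*, which had the widest range of levels. RefSeq promoter windows (GRCm38.p6) were matched for 6 of the 9 genes, with 7 starts; *Cd79b*, *Ms4a1* and *Ighm* had no entry. Each run below is the 250 bases before a start, 5′ to 3′ on the gene's strand, for *Cd79a* (chr7:24897247-24897496, plus strand), *Cd22* (chr7:30879029-30879278, minus strand, inside the gene's annotated span), *Blnk* (chr19:40994222-40994471, minus strand) and *Pou2af1* (chr9:51213440-51213689, plus strand). Capitals mark matches to 3 motifs searched on both strands, the octamer ATGCAAAT, the EBF1 palindrome CCCNNGGG and the ETS core AGGAAGT, which do not overlap one another in these windows.
Cd79a: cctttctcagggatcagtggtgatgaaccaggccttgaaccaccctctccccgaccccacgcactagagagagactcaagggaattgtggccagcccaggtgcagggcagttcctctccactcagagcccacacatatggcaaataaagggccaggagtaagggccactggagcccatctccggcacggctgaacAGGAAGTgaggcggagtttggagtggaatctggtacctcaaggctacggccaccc
Cd22: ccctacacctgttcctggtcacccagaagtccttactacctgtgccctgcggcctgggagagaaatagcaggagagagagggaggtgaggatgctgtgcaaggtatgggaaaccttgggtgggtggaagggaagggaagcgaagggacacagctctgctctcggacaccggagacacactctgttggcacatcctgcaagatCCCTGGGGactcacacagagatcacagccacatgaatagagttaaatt
Blnk: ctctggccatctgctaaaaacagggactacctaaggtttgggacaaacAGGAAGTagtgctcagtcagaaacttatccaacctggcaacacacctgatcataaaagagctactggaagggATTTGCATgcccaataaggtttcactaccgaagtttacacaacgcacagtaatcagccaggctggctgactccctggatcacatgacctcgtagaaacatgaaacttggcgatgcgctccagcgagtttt
Pou2af1: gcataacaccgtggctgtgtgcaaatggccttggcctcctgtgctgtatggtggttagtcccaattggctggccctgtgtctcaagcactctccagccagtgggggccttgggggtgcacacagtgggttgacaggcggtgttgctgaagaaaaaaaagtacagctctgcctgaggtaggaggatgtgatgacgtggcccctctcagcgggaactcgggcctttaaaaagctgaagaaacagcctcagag
*Cd79a* held the ETS letters at -55 to -49 from the start, *Cd22* the EBF1 letters at -48 to -41, and *Blnk* the ETS letters at -202 to -196 and the octamer, on the minus strand, at -130 to -123. The windows of *Pou2af1*, *Pax5* and *Ebf1* held none of the 3. Among 32851 promoter windows of the same length, 1.60% held the octamer, 11.8% the EBF1 letters and 7.69% the ETS letters, and a match is a description of letters, not of a bound site.

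The sort markers were high on every array: *Cd3e* read 12.14 to 12.63 and *Cd8a* 12.09 to 12.67 on the log2 scale of the deposited values. The lower quartile of all probe sets was 5.38 to 5.59, and signal beneath that quartile cannot be told from background. The SD of the difference between the 2 arrays of a group over all genes was 0.27 for tumor IR, 0.27 for tumor no IR, 0.57 for LN IR and 0.42 for LN no IR. In what follows a gene passed if its log2 fold change was 1 or more in either direction with limma's adjusted p below 0.1, and array values are given for replicate 1 and then replicate 2. Calls by limma's robust fit are given as an alternative only, since 2 arrays a group leave that fit little to weight.

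Tumor T cells read lower than LN T cells for most of the 9 markers, and the difference was largest for *Pou2af1*, *Cd22*, *Cd79b*, *Ighm* and *Ms4a1*. These genes did not move together on LN no IR replicate 1. There *Ms4a1* read 5.28, near the tumor arrays. On the same array *Pou2af1* read 9.08, *Cd22* 9.15, *Cd79b* 8.19 and *Ighm* 10.96 at their main probe sets. Without IR, 4 of 9 passed as lower in tumor (*Cd79b*, *Pou2af1*, *Ighm*, *Cd22*) and 0 as higher, beside 1.04% of all genes lower and 4.5% higher. These 4 are the genes whose main probe sets stayed high on that array. Not all probe sets of *Ighm* did, and 1425247_a_at read 5.78 there, near the tumor arrays. With IR in both tissues, again 4 passed as lower (*Cd79b*, *Ms4a1*, *Pou2af1*, *Ighm*) and 0 as higher, beside 2.0% and 4.8% of all genes. The median log2 fold change of the 9 was -1.87 without IR and -1.29 with IR, against -0.09 and 0.06 over all genes. At the main probe sets, every tumor array lay under every LN array for 6 of the 9 genes, beside 6.82% of all genes. For 0 of the 9 did every tumor array lie over every LN array, beside 10.9%. The plot of levels by array gives each gene its own panel.

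**Figure D1:**
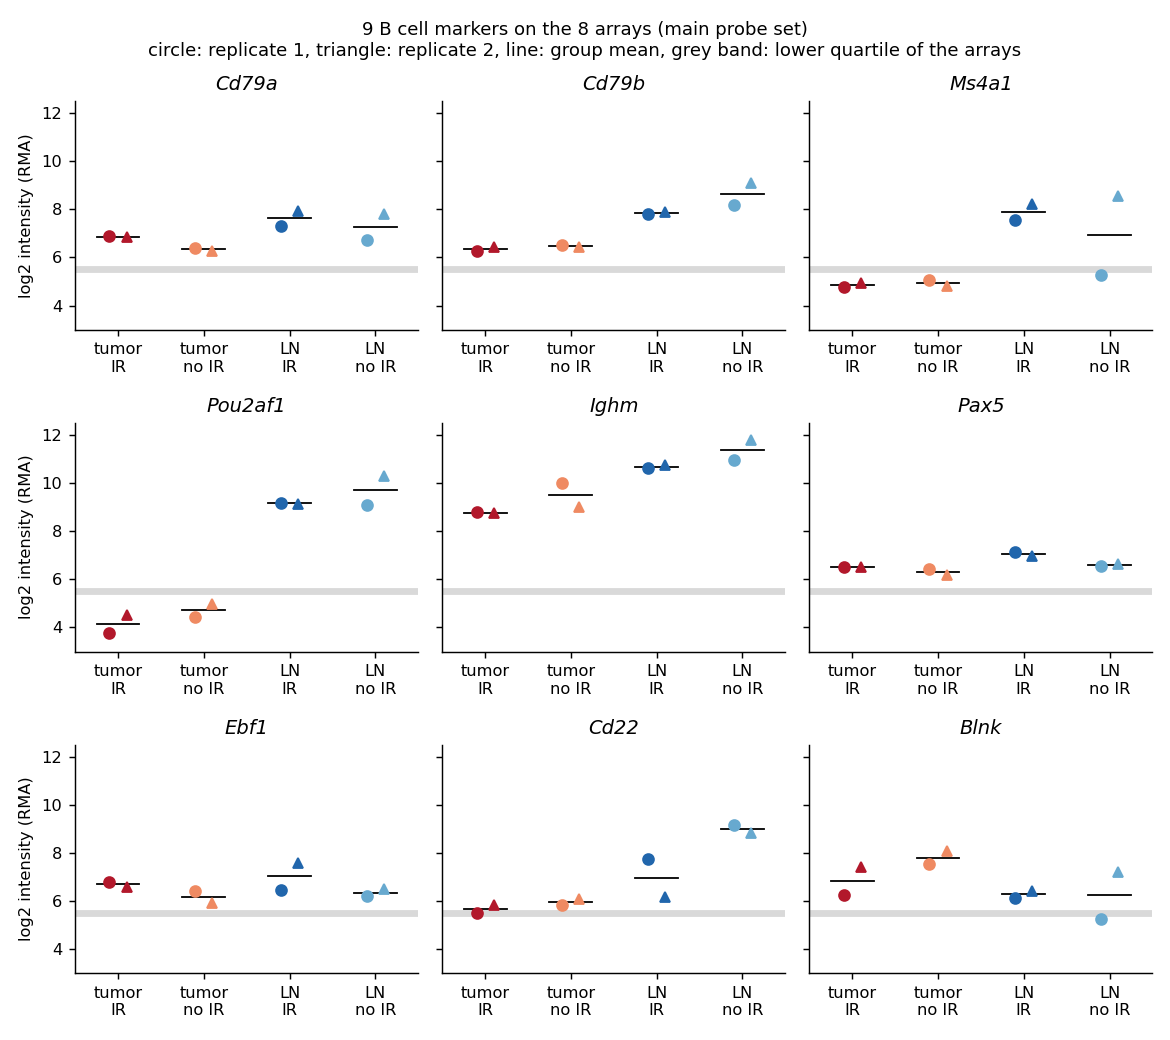
Deposited log2 level (y axis) of each of the 9 genes at its main probe set in the 4 groups (x axis), with circles for replicate 1, triangles for replicate 2, a line for the mean of 2 arrays and a grey band for the lower quartile of the arrays. *Pou2af1* sits at 3.77 to 4.99 in tumor and 9.08 to 10.31 in LN, while *Ms4a1* on LN no IR replicate 1 is at 5.28, near the tumor arrays.

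The coactivator gene *Pou2af1* (chr9:51213690-51240079) had the widest range of the 9. It read 3.77 and 4.51 in tumor IR, 4.44 and 4.99 in tumor no IR, 9.19 and 9.11 in LN IR, and 9.08 and 10.31 in LN no IR. All 4 tumor values lay under the lower quartile and all 4 LN values far above it, with no overlap. The log2 fold change, tumor over LN, was -4.98 ± 0.43 (SE) without IR (adjusted p = 0.00114) and -5.01 ± 0.43 with IR (adjusted p = 0.00115), and since the tumor level cannot be told from background these have no exact size. It was the 1 member that passed in both comparisons whichever array was left out.

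*Cd79b*, a signaling chain of the B cell receptor (chr11:106311341-106314562), read 6.26 and 6.44 in tumor IR, 6.51 and 6.43 in tumor no IR, 7.81 and 7.88 in LN IR, and 8.19 and 9.10 in LN no IR. The tumor arrays lay close together and under every LN array. Tumor T cells were lower, at a log2 fold change of -2.17 ± 0.28 without IR (adjusted p = 0.00617) and -1.50 ± 0.28 with IR (adjusted p = 0.0232). Its partner chain *Cd79a* (chr7:24897497-24901858) varied less. It read 6.89 and 6.83 in tumor IR, 6.40 and 6.27 in tumor no IR, 7.32 and 7.92 in LN IR, and 6.70 and 7.80 in LN no IR, and LN no IR replicate 1 fell within the tumor range. The differences of -0.91 ± 0.36 without IR (adjusted p = 0.244) and -0.76 ± 0.36 with IR (adjusted p = 0.251) did not pass.

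*Cd22*, the inhibitory receptor (chr7:30865404-30880342), was highest in LN no IR. Its main probe set read 5.50 and 5.84 in tumor IR, 5.83 and 6.07 in tumor no IR, 7.73 and 6.19 in LN IR, and 9.15 and 8.83 in LN no IR. The LN groups did not overlap each other or the tumor groups, although LN IR replicate 2 was only just above tumor. Tumor was lower without IR, at -3.04 ± 0.45 (adjusted p = 0.0109), and with IR the difference of -1.29 ± 0.45 did not pass (adjusted p = 0.138). The value with IR rested on LN IR replicate 2, without which it was -2.06 and passed (adjusted p = 0.00553), and it also passed in limma's robust fit (adjusted p = 0.0198). The other probe set gave -2.17 ± 0.21 without IR (adjusted p = 0.00201) and -0.91 ± 0.21 with IR, which is under the fold limit (adjusted p = 0.0465).

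*Ms4a1*, which encodes CD20 (chr19:11249679-11266149), separated the LN arrays rather than the groups. The main probe set read 4.78 and 4.95 in tumor IR, 5.06 and 4.83 in tumor no IR, 7.57 and 8.23 in LN IR, and 5.28 and 8.56 in LN no IR. LN no IR replicate 1 was under the lower quartile with the 4 tumor arrays, and the 3 other LN arrays were at least 2 units above it. Tumor was lower with IR, at -3.04 ± 0.90 (adjusted p = 0.0894), and the value without IR was -1.98 ± 0.90 (adjusted p = 0.325). The robust fit gave the same value without IR and called it (adjusted p = 0.0256), although the 2 LN no IR arrays lay far apart. Since the tumor arrays lay under the lower quartile these folds have no exact size. The second probe set showed the same split, with 3.91 to 4.26 on the tumor arrays, 8.40 and 8.92 in LN IR, and 4.56 and 9.24 in LN no IR.

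*Ighm* (chr12:113418826-113422730) is read by 11 probe sets of its own and by 4 more that also name other immunoglobulin genes, and these fell into distinct patterns. The immunoglobulin genes are a multigene family, and probe sets whose names end in _s_at or _x_at can bind related transcripts, so the identity of what they read is uncertain. The main probe set, 1427329_a_at, read 8.78 and 8.73 in tumor IR, 9.98 and 9.01 in tumor no IR, 10.62 and 10.74 in LN IR, and 10.96 and 11.76 in LN no IR. It was high on all arrays, tumor included, and lower in tumor, at -1.87 ± 0.36 without IR (adjusted p = 0.0292) and -1.92 ± 0.36 with IR (adjusted p = 0.0234). Probe set 1427351_s_at followed it, at -1.72 ± 0.40 (adjusted p = 0.0574) and -1.35 ± 0.40 (adjusted p = 0.0902).

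Another 5 probe sets of *Ighm* alone had the split of *Ms4a1*. Probe set 1425247_a_at read 5.59 and 5.70 in tumor IR, 5.37 and 5.26 in tumor no IR, 11.32 and 11.72 in LN IR, and 5.78 and 12.36 in LN no IR. In these 5 the mean of the 3 other LN arrays was 4.06 to 6.02 above LN no IR replicate 1, which was within 1 of the tumor arrays each time. With that array in the fit, 1425247_a_at did not pass without IR (-3.75 ± 1.75, adjusted p = 0.337) and passed with IR (-5.87 ± 1.75, adjusted p = 0.0910). The other 4 passed in neither comparison, with adjusted p of 0.111 to 0.171 with IR. A further probe set, 1425385_a_at, was low on both LN replicate 1 arrays, at 5.76 in LN IR and 5.76 in LN no IR, and at 10.17 and 11.12 on their replicate 2 arrays. The remaining 3, 1426196_at, 1451949_at and 1452535_at, stayed between 5.52 and 8.10 on all arrays and passed in neither tissue comparison, and the 4 shared probe sets were under the lower quartile on all arrays.

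**Figure D2:**
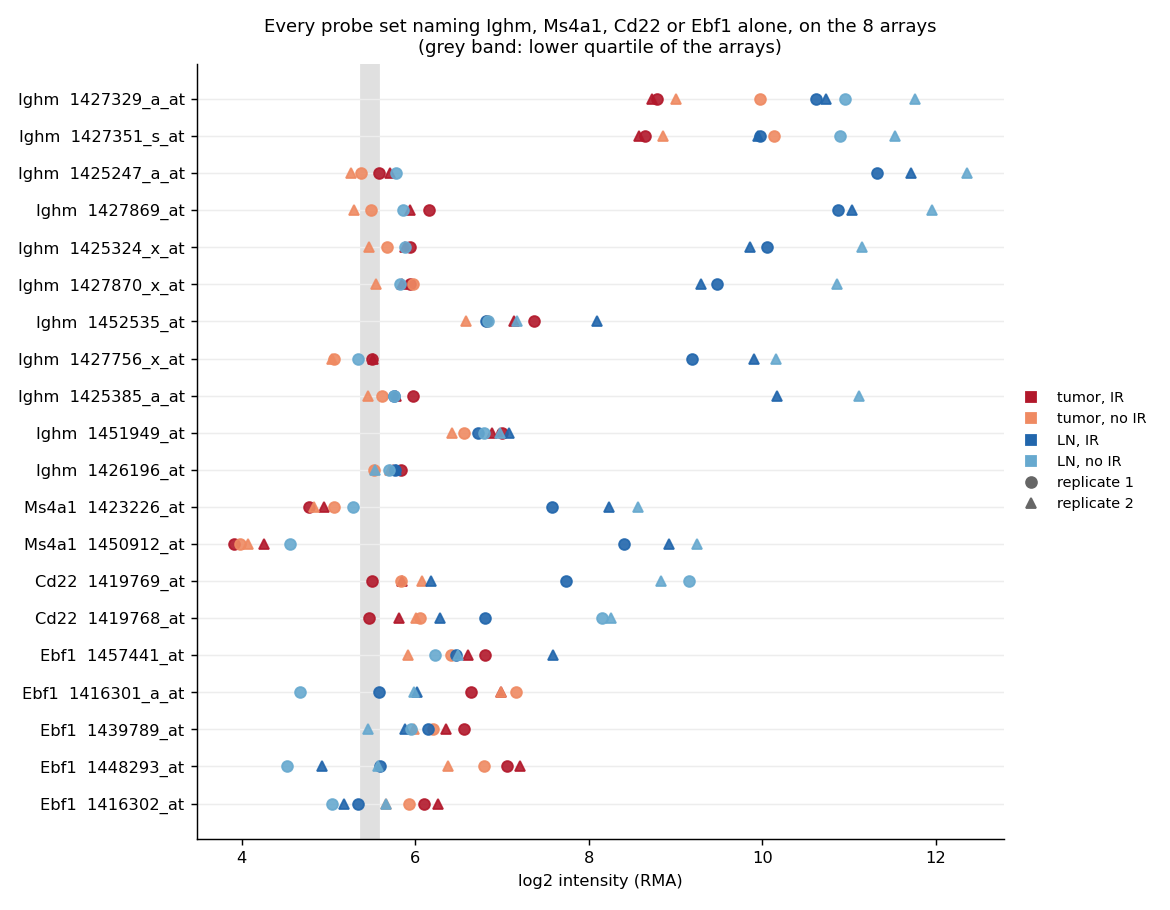
Deposited log2 level (x axis) on each of the 8 arrays for every probe set (y axis) that names *Ighm*, *Ms4a1*, *Cd22* or *Ebf1* alone, coloured by group, with circles for replicate 1, triangles for replicate 2 and a grey band for the lower quartile. In 5 *Ighm* probe sets and both of *Ms4a1*, LN no IR replicate 1 (pale blue circle) is the only LN array near tumor. The other LN arrays there lie at least 2 above every tumor array.

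The light chains that pair with IgM are not members, and they are given because they belong to the same protein. Of 33 probe sets naming light chain genes, 26 exceeded the lower quartile on at least 1 array, and 25 of these were lowest on LN no IR replicate 1 among the LN arrays, beside 22.7% of all probe sets that exceeded it. They can bind related transcripts and so are not separate measurements. The split of the 5 *Ighm* probe sets, with the 3 other LN arrays at least 2 above every tumor array, was met by 0 of the 33. A kappa probe set, 1425738_at (*Igk*), read 5.94 and 5.79 in tumor IR, 5.91 and 5.53 in tumor no IR, 7.04 and 9.72 in LN IR, and 6.03 and 10.38 in LN no IR. The brighter 1452557_a_at (*Igk*) read 10.32 and 7.53 in tumor IR, 11.40 and 7.34 in tumor no IR, 12.51 and 13.92 in LN IR, and 10.17 and 13.97 in LN no IR. On this one tumor and LN overlapped, with both tumor replicate 1 arrays above LN no IR replicate 1. *Jchain*, which joins IgM and IgA into polymers, read 4.76 and 4.56 in tumor IR, 7.43 and 4.10 in tumor no IR, 7.97 and 10.90 in LN IR, and 6.32 and 11.28 in LN no IR, and *Mzb1*, a chaperone of IgM assembly, read 5.18 to 5.93 in tumor, 7.77 and 8.92 in LN IR, and 6.22 and 9.88 in LN no IR. The tumor over LN value without IR was -3.04 ± 1.77 for *Jchain* (adjusted p = 0.447) and -2.53 ± 1.04 for *Mzb1* (adjusted p = 0.271), and neither passed. Of 10 plasma cell genes, *Xbp1* passed as higher and *Derl3* as lower in tumor with IR.

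*Pax5* and *Ebf1* encode the transcription factors of B cell identity. *Pax5* (chr4:44524748-44710694) read 6.50 and 6.53 in tumor IR, 6.41 and 6.17 in tumor no IR, 7.12 and 6.98 in LN IR, and 6.56 and 6.63 in LN no IR, a span of less than 1 over all arrays. At this main probe set the highest values were the LN IR arrays, and the 2 tissues did not overlap. The tumor value was -0.31 ± 0.15 without IR (adjusted p = 0.351) and -0.54 ± 0.15 with IR (adjusted p = 0.0766), the second short of the fold limit. The other *Pax5* probe set, 1454401_at, did not show this. Its tissues overlapped, its tumor values were 0.04 ± 0.17 without IR and 0.14 ± 0.17 with IR, and tumor IR replicate 1 was its highest array (6.50). *Ebf1* (chr11:44618100-45008096) differed between its 5 probe sets, of which the main one alone read lower in tumor. The main one read 6.81 and 6.61 in tumor IR, 6.41 and 5.91 in tumor no IR, 6.47 and 7.58 in LN IR, and 6.22 and 6.49 in LN no IR, with overlap of the tissues and values of -0.20 ± 0.36 without IR and -0.32 ± 0.36 with IR. Probe set 1448293_at read the other way, 7.06 and 7.21 in tumor IR, 6.80 and 6.38 in tumor no IR, 5.59 and 4.92 in LN IR, and 4.53 and 5.57 in LN no IR. It was higher in tumor by 1.54 ± 0.37 without IR (adjusted p = 0.0652) and by 1.88 ± 0.37 with IR (adjusted p = 0.0276), against LN levels that lie near or under the lower quartile, so these folds have no exact size. Probe set 1416301_a_at was higher in tumor without IR by 1.75 ± 0.40 (adjusted p = 0.0560). With IR it was at 1.02 ± 0.40 and did not pass (adjusted p = 0.183). On this probe set LN no IR replicate 1 read 4.67, under the lower quartile, so the fold without IR has no exact size. The others passed in neither comparison. Of these, 1416302_at was at 0.44 ± 0.23 without IR and 0.92 ± 0.23 with IR (adjusted p = 0.0539), with no overlap of the tissues. Probe set 1439789_at was at 0.40 ± 0.21 and 0.44 ± 0.21, with overlap. The values of the comparison without IR depended on LN no IR replicate 1. With that array left out they fell to 1.02 for 1448293_at and 1.08 for 1416301_a_at.

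*Blnk*, the adaptor downstream of the receptor (chr19:40928927-40994221), was the 1 member with higher values in tumor at its main probe set. It read 6.26 and 7.42 in tumor IR, 7.54 and 8.06 in tumor no IR, 6.14 and 6.43 in LN IR, and 5.25 and 7.23 in LN no IR. Without IR both tumor arrays lay above both LN arrays, and with IR the tissues overlapped. Neither 1.56 ± 0.64 without IR (adjusted p = 0.273) nor 0.55 ± 0.64 with IR (adjusted p = 0.670) passed. The value without IR depended on the LN no IR array used, at 2.55 without replicate 2, where it passed as higher (adjusted p = 0.0638), and 0.57 without replicate 1 (adjusted p = 0.645). *Blnk* is also expressed by macrophages, whose markers differed between the tissues. Of 13 macrophage and monocyte genes, 13 were higher in tumor without IR and 12 with IR, and their mean level was 8.98 and 10.43 in tumor IR, 10.45 and 11.17 in tumor no IR, 6.27 and 6.55 in LN IR, and 6.01 and 6.44 in LN no IR. Tumor IR replicate 1 was the lowest tumor array for both *Blnk* and the macrophage mean. Among the macrophage genes *C1qa* read 5.53 to 6.88 on the LN arrays, and the part of these cells in the *Blnk* values was not tested. The source of the *Ebf1* values that were higher in tumor was not tested either.

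The standard errors and calls of all 9 are drawn in the plot of fold changes. Leaving out arrays moved the counts. Without LN no IR replicate 1, where the lone array is assumed to vary like the other groups, 6 of 9 passed as lower in tumor without IR, adding *Cd79a* (-1.46, adjusted p = 0.0472) and *Ms4a1* (-3.62, adjusted p = 0.00511), and 1425247_a_at of *Ighm* reached -7.04 (adjusted p = 0.00120). *Ighm* at its main probe set no longer passed without tumor no IR replicate 2 (-1.38, adjusted p = 0.164) or LN no IR replicate 2 (-1.46, adjusted p = 0.149). With IR in both tissues, *Pou2af1* alone passed when either tumor IR array was left out, and *Ms4a1* also dropped out without LN IR replicate 2 (-2.71, adjusted p = 0.215) or without either tumor no IR array (adjusted p = 0.164).

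**Figure D3:**
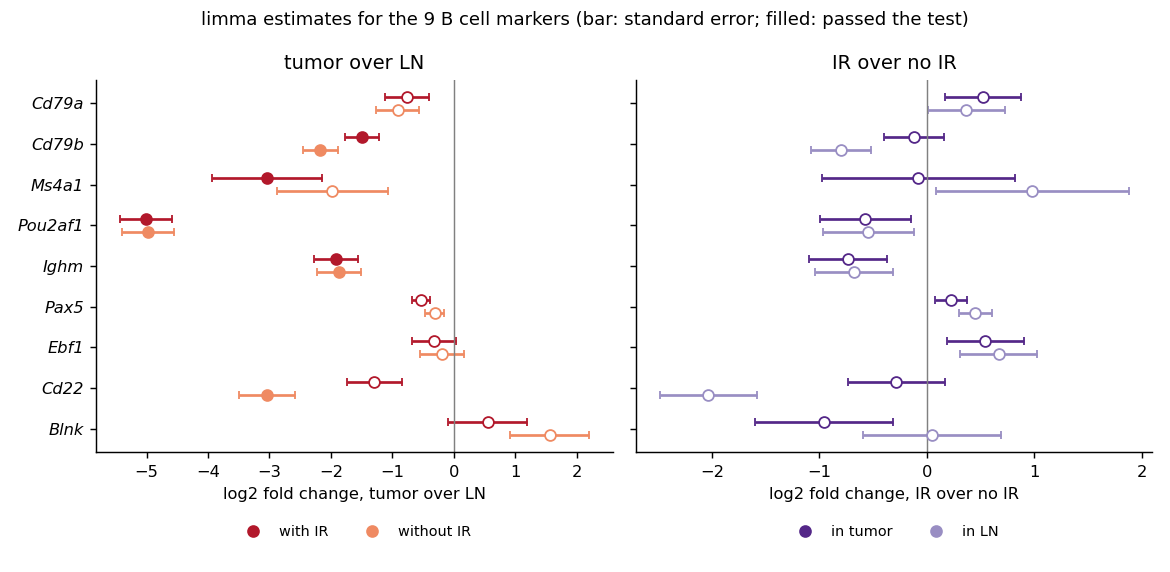
Log2 fold change (x axis) of the 9 genes (y axis), tumor over LN on the left and IR over no IR on the right, from limma on 8 arrays. Bars are standard errors and filled points passed (adjusted p below 0.1, 1 or more in either direction); 4 genes with IR and 4 without IR are filled on the left and 0 on the right.

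IR left no member past the thresholds at its main probe set. In LN T cells 0 of 9 passed, beside 1.05% of all genes; 3 members had an unadjusted p under 0.05, and limma's robust fit called 1, *Cd22*. The main *Cd22* probe set had no overlap between LN IR and LN no IR, and its value of -2.03 ± 0.45 had an adjusted p of 0.129. The other one, 1419768_at, read 6.81 and 6.28 in LN IR against 8.16 and 8.26 in LN no IR, and passed at -1.66 ± 0.21 (adjusted p = 0.0287). That call was lost once LN no IR replicate 1 was left out (-1.71, adjusted p = 0.116). At the main probe set *Cd22* passed without LN IR replicate 1 (-2.81, adjusted p = 0.00481) and without LN IR replicate 2 (-1.26, adjusted p = 0.0787). Other members passed with a different array left out: *Cd79b* without LN no IR replicate 1 (-1.26, adjusted p = 0.0984), *Ms4a1* without LN no IR replicate 2 (2.62, adjusted p = 0.0538) and *Ebf1* without LN IR replicate 1 (1.23, adjusted p = 0.0215).

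In tumor T cells 0 of 9 passed after IR, beside 0.0989% of all genes, with 0 at an unadjusted p under 0.05 and 0 by the robust fit. The largest difference was that of *Blnk*, -0.96 ± 0.64 (adjusted p = 0.483), where the 2 groups did not overlap: 6.26 and 7.42 in tumor IR against 7.54 and 8.06 in tumor no IR. Whether IR acted differently in tumor and LN was tested as the difference of the 2 effects, and 0 of 9 passed, as did 0.0% of all genes, with 1 member at an unadjusted p under 0.05 and 0 by the robust fit. That member was *Cd22*, at 1.75 ± 0.64 (adjusted p = 0.782), which passed without LN IR replicate 1 (2.52, adjusted p = 0.0421). With 2 arrays a group, a value that did not pass is not shown to be unchanged.

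The 2 LN no IR arrays differed more for these genes than for most. At the main probe sets replicate 2 was higher than replicate 1 for 8 of the 9, *Cd22* being the exception. The median difference was 0.91, beside -0.02 over all genes, whose share with replicate 2 higher was not counted. Replicate 2 was higher by at least 1 for 4 members (*Cd79a*, *Ms4a1*, *Pou2af1*, *Blnk*), beside 1.53% of all genes. The largest of these differences was 3.29, for *Ms4a1*. Some other probe sets differed more, by 4.68 for 1450912_at of *Ms4a1* and 6.58 for 1425247_a_at of *Ighm*. Others of *Ighm* did not, such as 1426196_at at -0.17. The mean of the 9 genes, each centred on its own mean, was -0.98 and -0.72 in tumor IR, -0.64 and -0.73 in tumor no IR, 0.62 and 0.74 in LN IR, and 0.34 and 1.37 in LN no IR, which placed LN no IR at both ends of the LN range. Other lists differed in the same pair. Of the naive and central memory T cell genes, 3 of 5 (*Lef1*, *Klf2*, *S1pr1*) were higher by at least 1 in replicate 2, and the median difference of the list was 1.06, against 0.91 for the members. Replicate 2 was also higher by at least 1 for 5 of 19 B cell receptor and surface genes, for *Jchain* and *Mzb1* of the plasma cell list, for *Siglech* and *Ly6d* of 7 plasmacytoid dendritic cell genes and for *Klre1* and *Klra8* of 4 NK cell genes. It was lower by at least 1 for 2 of 7 CD4 and regulatory T cell genes, and 0 of 12 T cell identity genes differed by 1, their differences running from -0.24 to 0.49. What these lists have to do with the members' values was not tested.

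**Figure D4:**
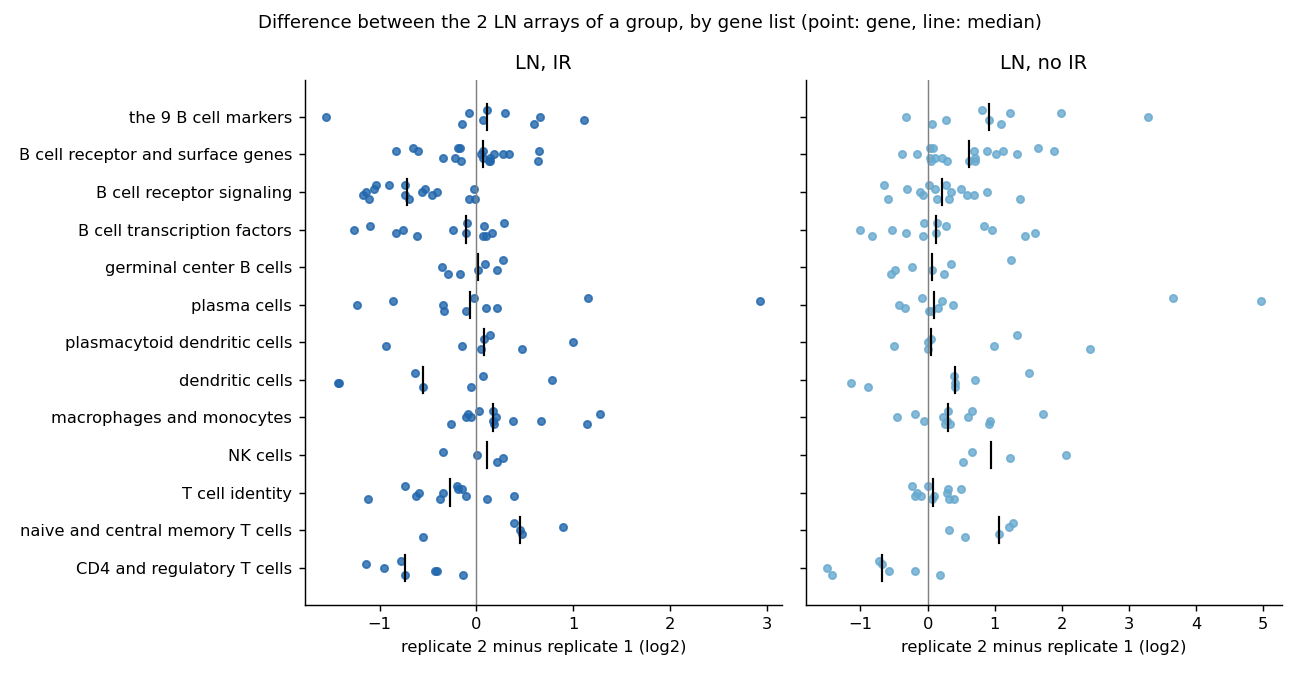
Difference of replicate 2 minus replicate 1 on the log2 scale (x axis) for each gene of 13 lists (y axis), in LN IR on the left and LN no IR on the right, with a bar for each list's median. In LN no IR the 9 B cell markers have a median of 0.91, naive and central memory T cell genes one of 1.06, NK cell genes one of 0.95 and T cell identity genes one of 0.08.

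Of the other B cell genes listed, most did not pass. Among 19 receptor and surface genes 3 were lower and 1 higher in tumor in both tissue comparisons. *Btla*, an inhibitory receptor that T cells also carry, read 7.62 to 7.86 in tumor and 10.83 to 11.36 in LN (-3.32 without IR, adjusted p = 0.000353, and -3.39 with IR, adjusted p = 0.000256). *Cxcr5*, the chemokine receptor for follicles, read 5.64 to 6.54 in tumor and 7.61 to 8.94 in LN (-2.03, adjusted p = 0.0443, and -2.22, adjusted p = 0.0278), and *Ralgps2* passed as well. The gene that was higher was *Fcgr2b*, an inhibitory Fc receptor shared with macrophages, at 10.01 to 12.21 in tumor and 7.17 to 7.79 in LN (4.10, adjusted p = 0.00887, and 3.56, adjusted p = 0.0146). The complement receptor gene *Cr2* (6.40 to 7.70) and *Fcer2a* (5.82 to 6.65), both genes of mature B cells, passed in neither comparison. LN arrays were also higher for genes of naive and central memory T cells, of which 4 of 5 were lower in tumor without IR and 5 of 5 with IR.

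Of 16 receptor signaling genes, *Blk*, a kinase of B cells, was lower in tumor without IR (-1.19, adjusted p = 0.0697), *Btk* and *Cd81* were higher, and with IR *Ptpn6* was higher. *Bank1* also passed with IR (adjusted p = 0.0497), but all 4 arrays compared lay under the lower quartile, and no direction is read from it. Of 13 transcription factor genes, *Spib* was lower in tumor without IR (-2.23, adjusted p = 0.0245) and with IR (-1.74, adjusted p = 0.0476), *Bach2* lower with IR (-1.28, adjusted p = 0.00547), *Irf8* higher in both and *Spi1* higher without IR (1.25, adjusted p = 0.0484). *Btk*, *Irf8* and *Spi1* are also genes of myeloid cells. Of 7 germinal center genes *Fas* was lower in tumor in both comparisons and *S1pr2* higher with IR, and in LN *Fas* (adjusted p = 0.0227) and *Mybl1* (adjusted p = 0.0725) were higher after IR, *Mybl1* with no exact size since both LN no IR arrays lay under the lower quartile; *Fas* is also a target of p53. No other B cell or plasma cell gene of these lists passed after IR in either tissue.

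The genes most like the members were sought among 1450 genes on no list whose level spanned at least 2 over the arrays. By Pearson correlation over 8 arrays with the centred mean of the 9, the nearest were *Fgf13* (0.988), *Sidt1* (0.984), *Atp1b1* (0.984), *Ifi213* (0.983), *Tdrp* (0.979) and *Btbd11* (0.978). These correlations describe 8 arrays that share their 4 groups, and they carry no test. *Sidt1* read 8.24 and 8.25 in tumor IR, 8.51 and 8.45 in tumor no IR, 10.38 and 10.95 in LN IR, and 10.08 and 11.12 in LN no IR. *Atp1b1*, a subunit of the sodium pump, read 7.61 to 7.91 in tumor and 9.51 to 10.95 in LN. Both were highest on LN no IR replicate 2 and, within LN, lowest on LN no IR replicate 1. The members' mean has that order too, and picking genes by their correlation with it favours this, so it is no separate result.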

How the data were processed

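The authors ran RMA (background correction, quantile normalization and probe set summary; its version was not given in the sources used here). They deposited 1 table of log2 values, 45101 probe sets by 8 arrays, taken here as it stands. The 9 genes and the gene lists were chosen with earlier results of these data known. Of 35877 annotated probe sets, 34945 name 1 gene and 932 several. A gene was read at its main probe set, the one naming it alone with the highest mean over 8 arrays (18193 genes). The study's methods fitted limma robustly and intersected it with SAM. Here limma 3.58.1 in R 4.3.3 fitted 4 group means by least squares, with 4 residual and 3.13 prior degrees of freedom, and Benjamini-Hochberg adjustment ran over the 35877 probe sets. The thresholds are those of the methods: adjusted p below 0.1, log2 fold change 1 or more in either direction. The fit was tested on simulated data. SAM was not run.

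All members are named on every array. Of the other B cell lists the genes that passed with the largest fold change are named, with *Cr2* and *Fcer2a*, and of other cell types the brightest; *Jchain*, *Mzb1*, *Igk*, *Siglech*, *Ly6d*, *Klre1* and *Klra8* were named after their values were seen. Some listed genes were not analysed here. RefSeq (GRCm38.p6) gave coordinates and promoters. The number of arrays limits the precision. Alternatives were a robust fit, a variance trend, weighted arrays, a block for replicate number, fits on the compared arrays alone, other thresholds, other main probe sets, dim probe sets dropped, T cell identity scaling, cyclic loess and each array left out.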

Additional observations from a re-analysis of the deposited data

How the results depend on the processing

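Of the members' and named genes' values under the alternatives, 1179 kept direction and side of the threshold, 47 lost it, 17 gained it and 33 changed sign. The count of members that passed between tumor and LN without IR was 3 to 6 with an array left out and 3 to 5 otherwise, and with IR 1 to 4 and 3 to 5. For IR in LN the count was 1 under the robust fit and 1 under T cell identity scaling (*Cd22* both times) and 0 to 2 with an array left out, in tumor 0 throughout, and for the difference of the IR effects 0 to 1. T cell identity scaling moved the median of all genes to 0.15 (tumor over LN, no IR), 0.17 (IR), 0.38 (IR, LN) and 0.34 (IR, tumor), and the share of genes higher among those passing to 90.2% from 81.2%, 81.1% from 70.6% and, for IR in LN, 96.3% from 74.9%; the members' tissue counts stayed at 4 and 4. Leaving out dim probe sets left 4 members to test, of which 3 passed in each tissue comparison. Over all genes, 143 passed as higher and 48 as lower for IR in LN, against 249 and 255 in the robust fit and 0 and 0 on the 4 LN arrays alone.

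The replicate numbers share a label and no stated origin. The replicate differences of tumor IR and LN IR correlated at -0.14 and those of tumor no IR and LN no IR at 0.07, while the 2 tumor groups and the 2 LN groups each correlated at 0.43. With replicate number as a block, 5 members passed without IR, the fifth being *Blnk* as higher (1.56, adjusted p = 0.0832), 4 with IR and 0 for IR in either tissue; with the LN numbers crossed, a fit chosen after seeing the data, 5 passed with IR.

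Sign changes were of values that had not passed. With the probe set of largest variance, *Ebf1* tumor over LN was 1.54 without IR and 1.88 with IR and passed both times, *Ighm* 2.45 for IR in LN and 0.33 for IR in tumor, *Ms4a1* 0.057 for IR in tumor and *Ebf1* 0.34 for the difference of IR effects. Under cyclic loess *Blnk* for IR in LN was -0.024. Under T cell identity scaling *Ebf1* without IR was 0.039, and *Cd79b* and *Ms4a1* for IR in tumor 0.13 and 0.17. With an array left out in turn, tumor over LN ran from -0.45 to 0.053 for *Ebf1* without IR, and with IR from -0.88 to 0.24 for *Ebf1* and -0.031 to 1.14 for *Blnk*. IR in LN ran from -0.18 to 0.91 for *Cd79a*, -0.66 to 2.62 for *Ms4a1*, -1.16 to 0.071 for *Pou2af1* and -0.94 to 1.04 for *Blnk*, and IR in tumor from -0.20 to 0.036 for *Ms4a1*. The difference of IR effects ran from -0.39 to 0.70 for *Cd79a*, -2.70 to 0.58 for *Ms4a1*, -0.64 to 0.59 for *Pou2af1*, -0.54 to 0.43 for *Ighm* and -0.68 to 0.43 for *Ebf1*. The cause of these changes was not tested.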
